A study of Mus musculus with 33 samples.

Results

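The genes described here are *Pparg* and 9 genes of lipid uptake and storage, *Fabp1*, *Fabp4*, *Fabp5*, *Cd36*, *Lpl*, *Plin2*, *Cidec*, *Angptl4* and *Olr1*. They were chosen by gene symbol, as *Pparg* and lipid-handling genes linked to alveolar macrophage identity. All 10 were found among the 24421 genes of the count files. *Zeb2*, which encodes a zinc finger E-box binding transcription factor, had been targeted in mouse tissue macs, and bulk RNA-seq was done on 33 samples in 6 groups. The lung samples were alveolar macrophages (AMs), sorted as CD11c+SiglecF+ cells, and the liver samples were Kupffer cells (KCs), sorted as Clec4F+CD64+F4/80+ cells.

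All mice were on the C57Bl/6 background, 6 to 8 weeks old, and carried *Zeb2* fl/fl alleles, the controls included. CRE- AMs and CRE- KCs came from *Zeb2* fl/fl mice with no Cre. CD11b- AMs and CD11b+ AMs carried *Itgax-cre* as well, which is active in AMs and in other cells that express CD11c. Tim4+ KCs and Tim4- KCs carried *Clec4f-cre*, which is active in KCs and also recombines in some B cells. Sorted CRE+ cells can hold both *Zeb2*-/- and *Zeb2*+/- cells. Each AM group had 5 samples and each KC group had 6. Tissue and Cre line cannot be told apart in this design, and the CD11b and Tim4 sorts divide cells of the CRE+ mice after the deletion.

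PPARγ, the product of *Pparg*, is a nuclear receptor that is activated by fatty acid ligands and binds DNA with RXR. AMs depend on it for their development after birth and for the clearance of surfactant lipid in the airspaces. The other 9 genes cover the path of a lipid through a cell: capture at the surface (CD36 and the oxidised LDL receptor encoded by *Olr1*), hydrolysis of circulating triglyceride (lipoprotein lipase and its inhibitor ANGPTL4), carriage in the cytosol (the fatty acid binding proteins encoded by *Fabp1*, *Fabp4* and *Fabp5*) and storage in droplets (the coat protein PLIN2 and the droplet fusion protein CIDEC).

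Libraries held 9837240 to 24332306 reads assigned to genes, and levels are given as CPM, the reads of a gene per 1000000 assigned reads after TMM scaling. *Zeb2* read 169 to 205 CPM in CRE- AMs, 84.7 to 114 CPM in CD11b- AMs and 50.3 to 70.2 CPM in CD11b+ AMs. In KCs it read 229 to 339 CPM in CRE- samples, 146 to 211 CPM in Tim4+ samples and 149 to 196 CPM in Tim4- samples. The floxed allele leaves a truncated transcript with its 3' end, so these counts are a weak check of the deletion. *Clec4f* and the other KC marker genes summed to at least 10309 CPM in every KC sample and to at most 251 CPM in any AM sample, and *Timd4* was at or below 8.37 CPM in Tim4- KCs. In each KC group the samples numbered 5 and 6 had no *Xist* reads and at least 1304 reads of the Y-linked gene *Ddx3y*, whereas samples 1 to 4 had 260 or more *Xist* reads. Among the KC libraries, CRE- KC sample 6 and Tim4- KC sample 1 stood apart for several of the genes below. The second held 9837240 reads, the fewest of all libraries, and results that rest on either are given with and without it.

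**Figure D1:**
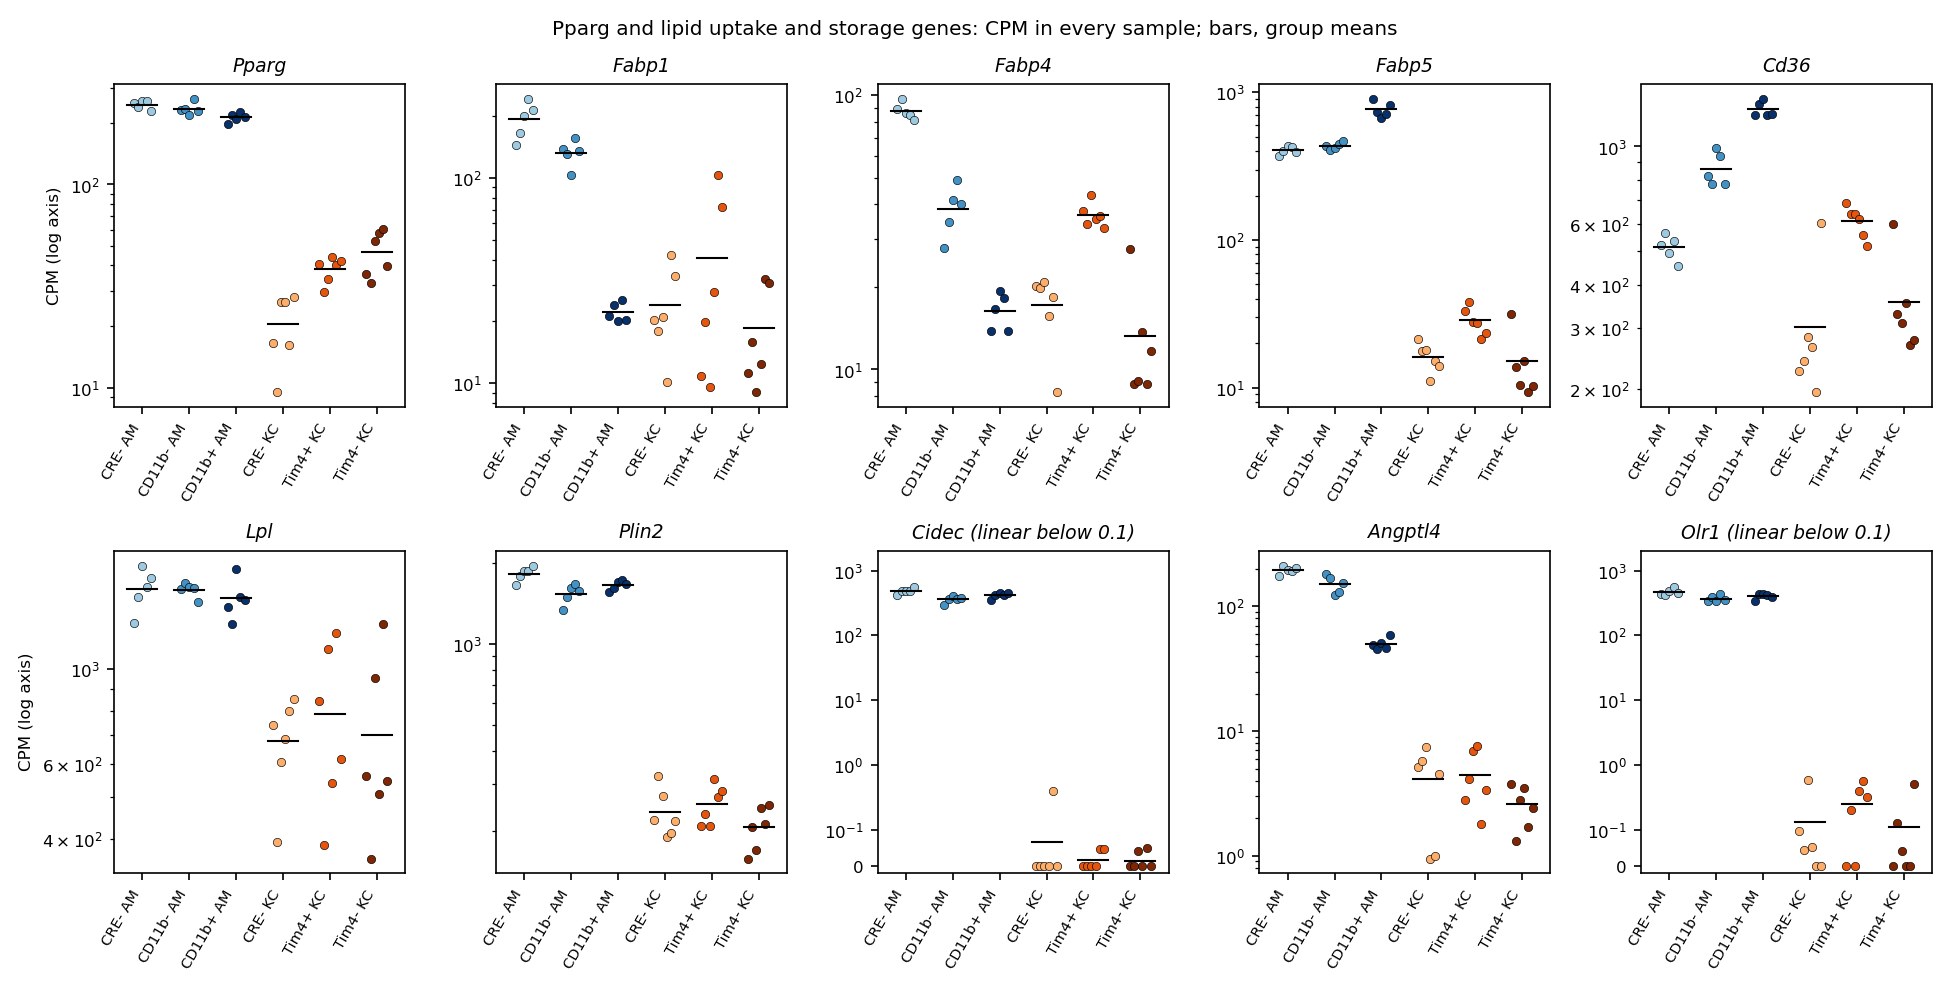
CPM of the 10 genes in each of the 33 samples, by group, on log axes (linear below 0.1 CPM for *Cidec* and *Olr1*), with a horizontal bar at each group mean. *Cidec* and *Olr1* lie above 290 CPM in all AM samples and below 1 CPM in all KC samples, while the *Cd36* ranges of the CRE- groups overlap.

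CRE- AMs were first compared with CRE- KCs, both without Cre. All 10 genes were higher in CRE- AMs at an adjusted p under 0.05 (edgeR quasi-likelihood test, Benjamini-Hochberg adjustment over 12145 genes), and 9 of the 10, all but *Cd36*, also passed a log2 fold change of 1, which together with the adjusted p makes a gene called. No member was called lower. Of the 12145 genes, 7680 passed the adjusted p threshold with no fold cut-off, in either direction. Where groups are said below not to overlap, the share of all genes without overlap is not given. Of all genes tested, 12.4% were called higher and 20.9% lower in CRE- AMs. The median log2 difference was 3.29 over the 10 genes and -0.03 over all genes tested. The genes were chosen for a link to AM identity, so their higher level in AMs is in part built into that choice.

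*Pparg* (chr6:115360951-115490399, plus strand, GENCODE M21, GRCm38) stood at 252, 239.9, 257, 257 and 231 CPM in the 5 CRE- AM samples. In CRE- KCs it had a lowest value of 9.50, a median of 21.5 and a highest value of 27.8 CPM. The groups did not overlap, and the level was higher in CRE- AMs (log2 fold change 3.59 ± 0.22 SE, adjusted p = 2.7e-09).

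*Cidec* (chr6:113424634-113435760, minus strand) and *Olr1* (chr6:129485244-129507165, minus strand) separated the tissues almost as presence and absence. *Cidec* stood at 417, 482, 478, 488 and 551 CPM in CRE- AMs. In CRE- KCs 5 of 6 libraries held no *Cidec* read and sample 5 held 8 reads, while each CRE+ KC group held 2 reads in all. *Olr1* stood at 438, 425, 487, 553 and 448 CPM in CRE- AMs, and CRE- KCs held 17 *Olr1* reads over 6 libraries, 13 of them in sample 3. A count of 3 reads is worth 0.123 to 0.305 CPM in the KC libraries, so no fold is given for either gene, and both fell under the expression filter in the fits of KCs alone.

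*Plin2* (chr4:86648386-86670060, minus strand), which coats lipid droplets, was abundant in both tissues but separated them fully. It stood at 1655, 1785, 1869, 1877 and 1959 CPM in CRE- AMs. CRE- KCs had a lowest value of 189.8, a median of 219.8 and a highest value of 322 CPM, and the level was 7.67-fold higher in CRE- AMs (log2 fold change 2.94 ± 0.13 SE, adjusted p = 5.6e-11).

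*Angptl4* (chr17:33773750-33781830, minus strand), an inhibitor of lipoprotein lipase and a known PPAR target, stood at 176, 212, 194, 193 and 203 CPM in CRE- AMs. In CRE- KCs it had a lowest value of 0.949, a median of 4.85 and a highest value of 7.42 CPM, again without overlap (log2 fold change 5.53 ± 0.37 SE, adjusted p = 8.4e-09). Its target *Lpl* (chr8:68880491-68907448, plus strand) differed far less. *Lpl* stood at 1289, 1483, 1754, 1562 and 1641 CPM in CRE- AMs against a lowest value of 394, a median of 714 and a highest value of 851 CPM in CRE- KCs (log2 fold change 1.17 ± 0.16 SE, adjusted p = 1.2e-05), and the groups did not overlap.

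The 3 fatty acid binding protein genes were all called higher in CRE- AMs, to different extents. *Fabp5* (chr3:10012548-10016607, plus strand), found in many cell types, stood at 368, 401, 435, 424 and 397 CPM in CRE- AMs and at 11.1 to 21.3 CPM in CRE- KCs, with a median of 16.4 CPM (log2 fold change 4.63 ± 0.14 SE, adjusted p = 1.3e-12). *Fabp1* (chr6:71199827-71205023, plus strand), the abundant binding protein of hepatocytes, stood at 145, 166, 199.9, 242 and 213 CPM in CRE- AMs against a lowest value of 10.1, a median of 20.7 and a highest value of 42.3 CPM in CRE- KCs (log2 fold change 2.99 ± 0.28 SE, adjusted p = 3.6e-07). *Fabp4* (chr3:10204088-10208576, minus strand), known from adipocytes, macs and capillary endothelium, stood at 88.7, 96.7, 86.2, 84.5 and 81.0 CPM in CRE- AMs against a lowest value of 8.27, a median of 19.1 and a highest value of 20.9 CPM in CRE- KCs (log2 fold change 2.33 ± 0.18 SE, adjusted p = 4.7e-08). None of these 3 genes overlapped between the tissues. *Fabp4* and *Fabp5* are related in sequence, and whether any of their reads were assigned to the wrong gene was not tested.

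*Cd36* (chr5:17781690-17888801, minus strand), a scavenger receptor and fatty acid translocase, was the exception. It stood at 521, 563, 492, 533 and 452 CPM in CRE- AMs, and CRE- KCs had a lowest value of 196, a median of 253 and a highest value of 604 CPM. The highest CRE- KC value, in sample 6, lay above all 5 CRE- AM samples, while the other 5 CRE- KC samples lay below them. The difference of 0.75 ± 0.23 SE on the log2 scale (adjusted p = 0.011) did not reach the fold cut-off, and without CRE- KC sample 6 it was 1.07 (adjusted p = 2.6e-07) and was called.

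Markers of cells that could bring such transcripts into a sort were counted beside these levels. Of the 9 hepatocyte markers all had reads in every KC group and summed to 176 to 501 CPM in CRE- KCs, whereas they summed to at most 0.860 CPM in any AM sample. The 11 endothelial markers, among them *Kdr*, *Stab2* and *Clec4g*, summed to 637 to 1937 CPM in CRE- KCs and to 6.89 to 10.3 CPM in CRE- AMs. Of the 6 adipocyte markers, *Lep* had no read in any group, *Adipoq* had reads in 1 AM sample, and the list summed to at most 5.81 CPM in any sample. *Fabp1* and *Cidec* in AMs were read with hepatocyte and adipocyte markers near 0. The part of liver parenchymal and endothelial RNA in the KC values was not tested, and in bulk samples fewer cells of a type and less RNA per cell cannot be told apart.

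Divided by the length of the longest coding transcript of each gene, the mean levels of CRE- AMs ranked from *Plin2* at 969 ± 60.9 CPM per kb (SD, n = 5) to *Angptl4* at 59.1 ± 4.06. *Fabp5*, *Lpl* and *Fabp1* followed *Plin2*, at 410 ± 26.4, 376 ± 42.5 and 349 ± 69.6 CPM per kb, and these 3 neighbours did not differ beyond their spread. *Pparg* ranked 8, at 116 ± 5.35 CPM per kb. In CRE- KCs *Lpl* ranked first, at 165 ± 39.9 CPM per kb (SD, n = 6). *Plin2* at 125 ± 26.6 and *Cd36* at 89.0 ± 44.4 followed, and the means ± SD of neighbours in this order overlapped. *Pparg* stood at 9.65 ± 3.51 CPM per kb. In CD11b+ AMs *Cd36* ranked 3, up from 6, at 376 ± 18.4 CPM per kb, and *Fabp1* ranked 8, down from 4, at 40.2 ± 4.28 CPM per kb.

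Because these genes were high together in AMs, the stretch before their RefSeq starts (GRCm38.p6) was read for 6 of the 10, *Pparg*, *Fabp1*, *Cd36*, *Plin2*, *Cidec* and *Olr1*, which have 9 start windows in all. *Fabp4*, *Fabp5*, *Lpl* and *Angptl4* are not shown. In the 250 bases before each start, the nuclear receptor hexamer AGGTCA was looked for on both strands, as was the E-box CACCTG that ZEB factors bind. The direct repeat bound by PPAR and RXR was looked for too, as a pair of such hexamers spaced by 1 base of any kind. Bases that GENCODE annotates as exon are left out of the lines below, and capitals mark the matches, AGGTCA or its reverse complement TGACCT, and CACCTG or its reverse complement CAGGTG.
Pparg, chr6:115362099-115362291, plus strand: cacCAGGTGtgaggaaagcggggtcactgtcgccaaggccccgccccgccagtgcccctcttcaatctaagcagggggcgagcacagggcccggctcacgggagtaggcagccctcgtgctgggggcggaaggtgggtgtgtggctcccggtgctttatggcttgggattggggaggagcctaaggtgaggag
Fabp1, chr6:71199629-71199826, plus strand: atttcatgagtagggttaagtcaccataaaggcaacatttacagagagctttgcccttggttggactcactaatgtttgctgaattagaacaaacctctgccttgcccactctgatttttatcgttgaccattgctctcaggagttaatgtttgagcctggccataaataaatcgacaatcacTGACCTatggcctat
Cd36, chr5:17835897-17836146, minus strand: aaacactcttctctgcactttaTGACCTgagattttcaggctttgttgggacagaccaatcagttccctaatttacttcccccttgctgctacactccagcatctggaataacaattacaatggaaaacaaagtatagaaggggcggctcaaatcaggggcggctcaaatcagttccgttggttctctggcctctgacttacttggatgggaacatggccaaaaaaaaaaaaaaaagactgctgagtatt
Plin2, chr4:86670061-86670309, minus strand: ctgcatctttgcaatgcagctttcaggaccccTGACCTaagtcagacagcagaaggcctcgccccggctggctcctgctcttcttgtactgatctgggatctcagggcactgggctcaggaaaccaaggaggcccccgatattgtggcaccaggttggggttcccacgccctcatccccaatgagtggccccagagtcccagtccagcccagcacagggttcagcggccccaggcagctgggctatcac
Olr1, chr6:129507166-129507415, minus strand: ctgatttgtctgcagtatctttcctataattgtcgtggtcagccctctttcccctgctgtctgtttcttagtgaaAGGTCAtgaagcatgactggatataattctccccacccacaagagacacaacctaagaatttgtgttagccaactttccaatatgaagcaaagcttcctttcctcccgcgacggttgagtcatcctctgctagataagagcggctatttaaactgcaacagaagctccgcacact
Cidec, chr6:113435761-113436010, minus strand: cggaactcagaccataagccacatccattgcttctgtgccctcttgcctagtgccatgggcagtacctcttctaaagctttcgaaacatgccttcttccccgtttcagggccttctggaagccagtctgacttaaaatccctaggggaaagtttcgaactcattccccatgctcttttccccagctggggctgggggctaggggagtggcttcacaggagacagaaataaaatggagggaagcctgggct

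Of the 9 windows, 6 held the hexamer, which 14.0% of the 32851 windows of the same length in the table hold. The matches shown begin at position -67 for *Fabp1*, -228 for *Cd36*, -218 for *Plin2* and -175 for *Olr1*, where -1 is the base before the start. The other matches lie in exon bases left out of the lines, in 2 *Pparg* windows, at -28 and -9, and in the *Fabp1* window, at -9. The *Pparg* stretch shown held the 1 E-box match among the 9 windows, at position -247, and 17.2% of all windows hold one. The direct repeat was in none of the 9 windows and in 0.0335% of all windows. A match in a window describes its letters and is not evidence of binding.

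The effect of losing ZEB2 in AMs was then examined in the 2 populations sorted on CD11b from the *Itgax-cre* line. In CD11b- AMs 1 of the 10 genes was called lower (*Fabp4*) and none higher, where 2.51% of 11573 genes were called lower and 3.98% higher than in CRE- AMs. In CD11b+ AMs 3 were called lower (*Fabp1*, *Fabp4* and *Angptl4*) and 1 higher (*Cd36*), where 5.68% of all genes were called lower and 9.57% higher. The medians over the 10 genes were -0.31 and -0.22 on the log2 scale, against 0.00 and -0.01 over all genes. Both comparisons share the CRE- AM samples.

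*Fabp1* fell from the CRE- AM values above to 21.2, 24.1, 20.2, 25.3 and 20.3 CPM in CD11b+ AMs. That is 8.79-fold lower (log2 fold change -3.14 ± 0.14 SE, adjusted p = 3.7e-13), with no overlap. In CD11b- AMs it stood at 138, 130.2, 104, 157 and 135 CPM, and the smaller difference passed the p threshold but not the fold cut-off (log2 fold change -0.55 ± 0.12 SE, adjusted p = 0.0023).

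*Fabp4* fell in both populations. It stood at 27.8, 34.4, 41.4, 49.1 and 40.1 CPM in CD11b- AMs (log2 fold change -1.19 ± 0.13 SE, adjusted p = 9.9e-07) and at 13.8, 16.6, 19.3, 18.2 and 13.8 CPM in CD11b+ AMs (log2 fold change -2.43 ± 0.13 SE, adjusted p = 1.5e-11). The 3 AM groups did not overlap with each other, and CD11b+ AMs were the lowest.

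*Angptl4* stood at 181, 167, 123, 129 and 153 CPM in CD11b- AMs, where 1 of the 5 values lay within the CRE- AM range (log2 fold change -0.39 ± 0.10 SE, adjusted p = 0.0067). In CD11b+ AMs it stood at 48.6, 45.2, 50.9, 46.8 and 59.4 CPM, all below the other AM samples (log2 fold change -1.98 ± 0.10 SE, adjusted p = 5.9e-12).

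*Cd36* went the other way. It stood at 820.2, 781, 991, 939.6 and 778 CPM in CD11b- AMs and at 1233, 1323, 1369, 1235 and 1239 CPM in CD11b+ AMs, and the 3 AM groups did not overlap. The rise was called in CD11b+ AMs (log2 fold change 1.30 ± 0.07 SE, adjusted p = 1.9e-11) and stayed under the fold cut-off in CD11b- AMs (log2 fold change 0.74 ± 0.07 SE, adjusted p = 3.1e-07). *Fabp5* stood at 899, 741, 669, 708 and 817 CPM in CD11b+ AMs, above all other AM samples, and passed the p threshold but not the fold cut-off (log2 fold change 0.90 ± 0.07 SE, adjusted p = 5.4e-09). In CD11b- AMs, *Fabp5* stood at 432, 409, 418, 449.9 and 467 CPM and overlapped CRE- AMs (log2 fold change 0.09 ± 0.07 SE, adjusted p = 0.389).

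The other 5 genes stayed under the fold cut-off in both populations. *Pparg* itself stood at 199.6, 219.5, 211, 228 and 215 CPM in CD11b+ AMs, just below the CRE- AM range (log2 fold change -0.22 ± 0.06 SE, adjusted p = 0.0045). In CD11b- AMs it stood at 233, 236, 221, 263 and 229 CPM and overlapped CRE- AMs (log2 fold change -0.07 ± 0.06 SE, adjusted p = 0.394). *Plin2*, *Cidec* and *Olr1* were lower in both populations at an adjusted p under 0.05, with log2 fold changes of -0.26, -0.43 and -0.36 in CD11b- AMs and -0.16, -0.22 and -0.23 in CD11b+ AMs. All *Cidec* values in CRE+ AMs lay between 296 and 457 CPM, and all *Olr1* values between 333 and 437 CPM. *Lpl* spanned 1282 to 1754 CPM over the 15 AM samples and did not pass the test in either population (adjusted p = 0.923 and 0.368).

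Between the CRE+ populations, *Fabp1*, *Fabp4* and *Angptl4* were called lower in CD11b+ than in CD11b- AMs, where 3.30% of all genes were called lower and 6.85% higher. Their log2 fold changes were -2.58, -1.24 and -1.59 (adjusted p = 3.8e-11, 4.7e-07 and 7.4e-10). No member was called higher, although *Fabp5* (0.81, adjusted p = 7.4e-08) and *Cd36* (0.56, adjusted p = 5.3e-06) passed the p threshold alone.

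The AM groups also differed in the composition of their reads. TMM factors of CD11b+ AMs were 0.876 to 0.910, against 0.993 to 1.03 in the other AM samples. Scaling by library size alone shifted every log2 fold change of CD11b+ AMs against CRE- AMs by about -0.20 and kept the 4 calls. Under it *Lpl* was lower at -0.27 (adjusted p = 0.0066). The 7 neutrophil markers in the files summed to 54.1 to 74.1 CPM in CRE- AMs, 937 to 2517 CPM in CD11b- AMs and 7931 to 10364 CPM in CD11b+ AMs, of which *S100a8* and *S100a9* made up most in both CRE+ groups. *Cxcr2* read 2.05 to 4.90 CPM in CRE- AMs, 87.8 to 236 CPM in CD11b- AMs and 498 to 641 CPM in CD11b+ AMs. *Mmp8*, *Ltf* and *Retnlg* were also above the CRE- AM range in all CD11b+ AM samples, and *Camp* stayed at or below 3.48 CPM. The monocyte marker *Ly6c2* read 38.9 to 178 CPM in CD11b+ AMs and at most 0.731 CPM in CRE- AMs, although all 8 monocyte markers summed to no more in CD11b+ AMs (369 to 703 CPM) than in CRE- AMs (598 to 1046 CPM). The 9 AM markers summed to at least 42677 CPM in CD11b+ AMs, of which *Chil3* made up 37029 CPM or more. Of the other 8, *Siglecf*, *Krt79* and *Mrc1* lay below the CRE- AM range in all CD11b+ AM samples, with medians of 221, 129 and 467 CPM against 529.5, 399 and 738 CPM, and the rest lay above it. Among the rest was *Cd101*, which the authors used with EpCam to mark *Zeb2*-/- AMs. Its medians were 24.9, 178 and 502 CPM in CRE-, CD11b- and CD11b+ AMs. The share of *Zeb2*-/- cells in each CRE+ group was not tested. The part of other myeloid cells in the falls of *Fabp4* in both CRE+ groups and of *Fabp1* and *Angptl4* in CD11b+ AMs was not tested. Nor was it tested for the rises of *Cd36* in both CRE+ groups and of *Fabp5* in CD11b+ AMs.

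**Figure D2:**
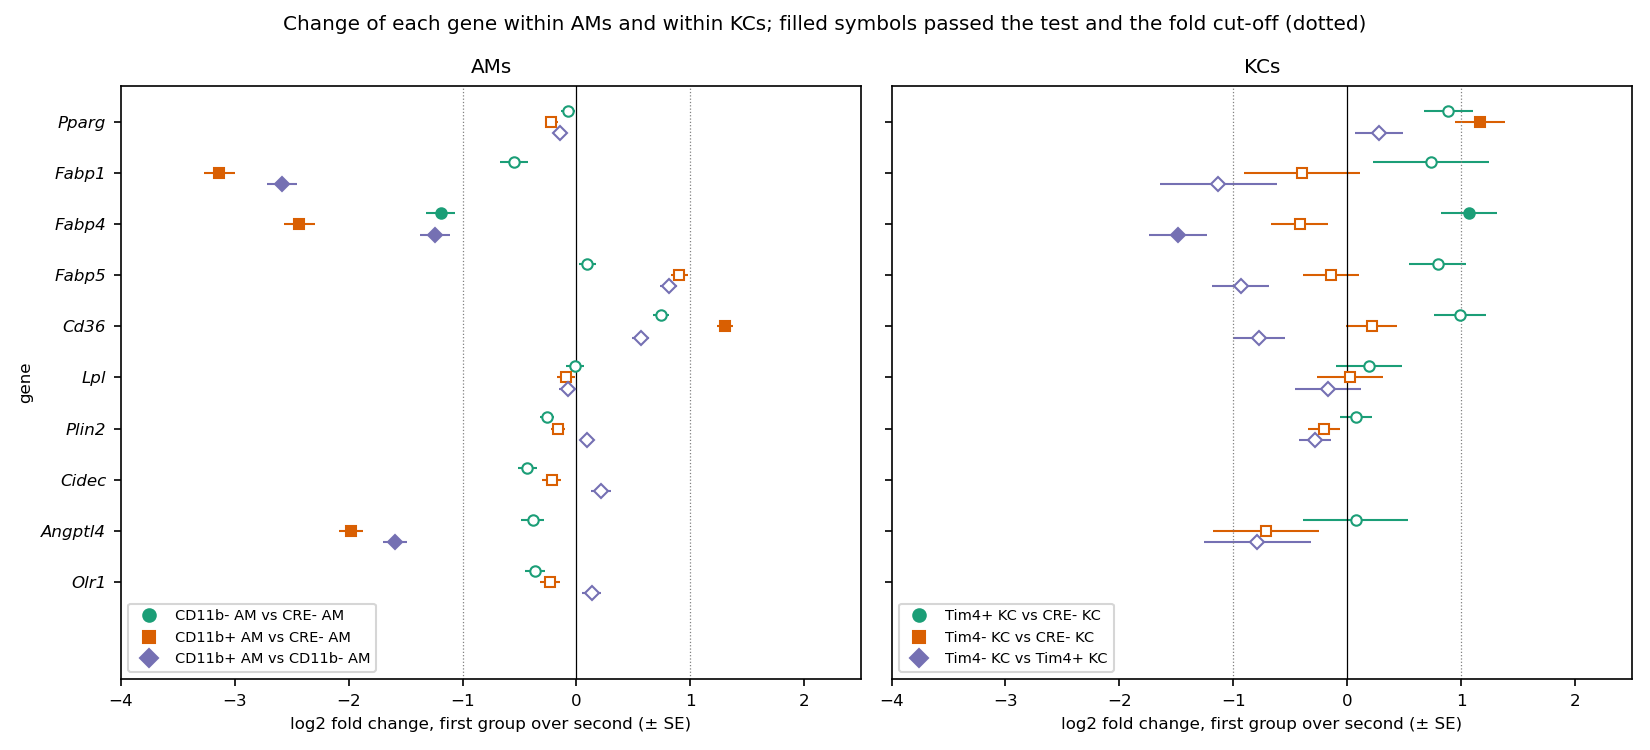
Log2 fold changes (x axis, ± SE) of each gene (y axis) in the AM comparisons and the KC comparisons, with filled symbols for genes called and dotted lines at the fold cut-off. In AMs *Fabp1*, *Fabp4* and *Angptl4* lie to the left and *Cd36* and *Fabp5* to the right, and in KCs *Pparg* lies to the right of 0 in both comparisons with CRE- KCs. *Cidec* and *Olr1* were not tested in KCs.

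KCs were examined in the same way, with 8 of the 10 genes above the expression filter. In Tim4+ KCs 1 member (*Fabp4*) was called higher than in CRE- KCs and none lower, where 1.94% of 12500 genes were called higher and 0.376% lower. In Tim4- KCs 1 member (*Pparg*) was called higher and none lower, where 3.43% of all genes were called higher and 5.39% lower. Between the CRE+ populations 1 member (*Fabp4*) was called lower in Tim4- KCs and none higher, where 5.01% of all genes were called lower and 0.440% higher. The medians over the 8 genes were 0.76, -0.17 and -0.78 in these comparisons, against -0.0031, -0.03 and 0.01 over all genes.

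*Pparg* had a lowest value of 29.5, a median of 40.2 and a highest value of 43.9 CPM in Tim4+ KCs and a lowest value of 32.9, a median of 46.1 and a highest value of 60.4 CPM in Tim4- KCs. All CRE+ KC samples lay above the highest CRE- KC sample, at 27.8 CPM. The rise was called in Tim4- KCs (log2 fold change 1.17 ± 0.22 SE, adjusted p = 4.4e-04), and in Tim4+ KCs it passed the p threshold but not the fold cut-off (log2 fold change 0.89 ± 0.22 SE, adjusted p = 0.014). The CRE+ populations themselves overlapped (log2 fold change 0.28 ± 0.21 SE, adjusted p = 0.443), and all CRE+ KC values remained below those of every AM sample, the lowest of which was 199.6 CPM. With samples 1 to 4 alone the values were 1.18 in Tim4- KCs (adjusted p = 0.0086) and 0.88 in Tim4+ KCs (adjusted p = 0.14).

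*Fabp4* had a lowest value of 32.8, a median of 35.9 and a highest value of 43.2 CPM in Tim4+ KCs, above all CRE- KC samples (log2 fold change 1.07 ± 0.25 SE, adjusted p = 0.0099). In Tim4- KCs it had a lowest value of 8.84, a median of 10.4 and a highest value of 27.5 CPM, below all Tim4+ KC samples (log2 fold change -1.48 ± 0.25 SE, adjusted p = 5.0e-04) and overlapping CRE- KCs (log2 fold change -0.42 ± 0.25 SE, adjusted p = 0.243). Sample 6 of CRE- KCs held the lowest CRE- KC value and sample 1 of Tim4- KCs the highest of its group. Without the former the difference in Tim4+ KCs was 0.93 (adjusted p = 0.019), under the fold cut-off, and with samples 1 to 4 alone it was 0.94 and did not pass the test (adjusted p = 0.115). Without Tim4- KC sample 1 the difference between the CRE+ populations was -1.81 (adjusted p = 1.3e-05), and that from CRE- KCs was -0.74 (adjusted p = 0.0071).

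*Cd36* had a lowest value of 516, a median of 628 and a highest value of 688 CPM in Tim4+ KCs, above 5 of the 6 CRE- KC samples. Its difference from CRE- KCs lay at the fold cut-off (log2 fold change 0.99 ± 0.23 SE, adjusted p = 0.0091), and it was called at 1.31 (adjusted p = 2.8e-05) without CRE- KC sample 6. In Tim4- KCs it had a lowest value of 268, a median of 320.0 and a highest value of 598 CPM, the highest in sample 1, and passed the p threshold against Tim4+ KCs (log2 fold change -0.78 ± 0.23 SE, adjusted p = 0.029) but not against CRE- KCs (adjusted p = 0.530).

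*Fabp5* had a lowest value of 21.3, a median of 27.6 and a highest value of 38.0 CPM in Tim4+ KCs, just above the highest CRE- KC value of 21.3 CPM, and the difference did not pass the test (log2 fold change 0.79 ± 0.25 SE, adjusted p = 0.065). In Tim4- KCs it had a lowest value of 9.33, a median of 12.04 and a highest value of 31.6 CPM. The difference between the CRE+ populations was -0.94 (adjusted p = 0.017) with all samples and -1.28 (adjusted p = 0.00018), which is called, without Tim4- KC sample 1.

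With both of these libraries left out, a setting chosen after their values were seen, 1 member (*Cd36*, at 1.31) was called higher in Tim4+ than in CRE- KCs, 1 (*Pparg*, at 1.33) was called higher in Tim4- than in CRE- KCs, and 2 (*Fabp4* at -1.81 and *Fabp5* at -1.28) were called lower in Tim4- than in Tim4+ KCs.

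Endothelial markers also differed between the KC groups. *Fabp4* and *Cd36* are themselves known from liver and capillary endothelium. The 11 markers summed to 637 to 1937 CPM in CRE- KCs, 1098 to 3125 CPM in Tim4+ KCs and 367 to 533 CPM in Tim4- KCs, and CRE- KC sample 6 held the lowest CRE- KC sum. Within CRE- KCs the endothelial sum varied 3.04-fold between the lowest and the highest sample, *Fabp4* 2.52-fold and *Cd36* 3.08-fold, the lowest sum, the lowest *Fabp4* and the highest *Cd36* being in sample 6. Within Tim4+ KCs the endothelial sum varied 2.84-fold between the lowest and the highest sample, while *Fabp4* varied 1.32-fold and *Cd36* 1.33-fold. Within Tim4- KCs the sum varied 1.45-fold, *Fabp4* 3.11-fold and *Cd36* 2.24-fold. The 2 libraries that stood apart had *Cd36* at 604 and 598 CPM with endothelial sums of 637 and 482 CPM, and Tim4- KC sample 1 had *Fabp4* at 27.5 CPM and *Fabp5* at 31.6 CPM at that sum. The part of endothelial RNA in the differences between KC groups was not tested.

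**Figure D3:**
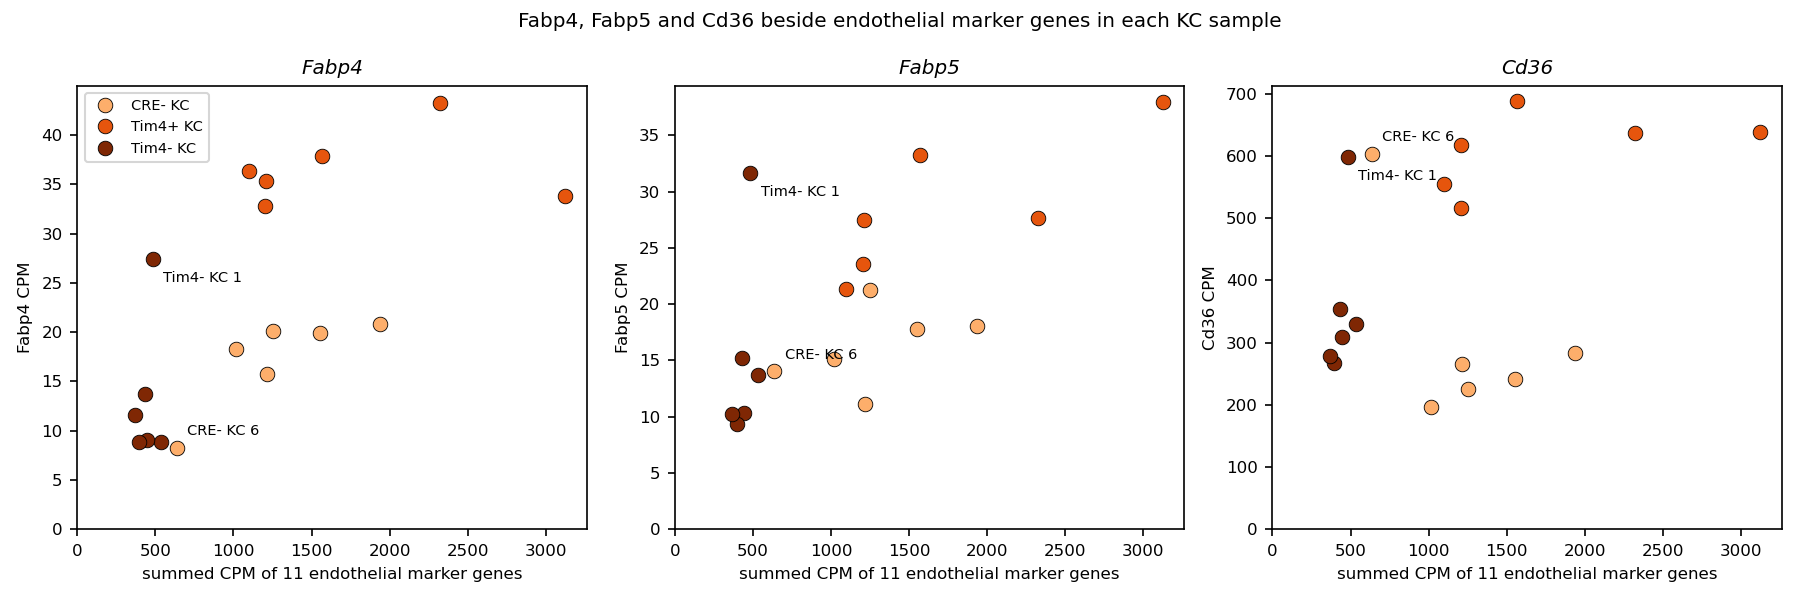
CPM of *Fabp4*, *Fabp5* and *Cd36* (y axes) against the summed CPM of 11 endothelial marker genes (x axes) in each of the 18 KC samples, colored by group. Tim4+ KCs, with sums from 1098 to 3125 CPM, hold the highest *Fabp4* values, and the labelled libraries CRE- KC 6 and Tim4- KC 1 have *Cd36* at 604 and 598 CPM at sums of 637 and 482 CPM.

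*Fabp1* in KCs varied more within groups than between them. It had a lowest value of 10.1, a median of 20.7 and a highest value of 42.3 CPM in CRE- KCs, a lowest value of 9.63, a median of 23.9 and a highest value of 104 CPM in Tim4+ KCs and a lowest value of 9.05, a median of 14.2 and a highest value of 32.1 CPM in Tim4- KCs, and none of the comparisons passed the test (adjusted p = 0.520, 0.615 and 0.173). In all 3 groups the samples numbered 5 and 6, those with Y-linked reads, held the highest values. They stood at 42.3 and 33.2 CPM in CRE- KCs, where samples 1 to 4 reached 21.0 CPM, at 104 and 72.4 CPM in Tim4+ KCs, where samples 1 to 4 reached 28.0 CPM, and at 32.1 and 30.8 CPM in Tim4- KCs, where samples 1 to 4 reached 15.9 CPM. *Alb*, the most familiar hepatocyte transcript, did not share that order: it read 75.0 to 79.1 CPM in CRE- KC samples 5 and 6 and 96.4 to 192 CPM in samples 1 to 4. In Tim4+ KCs *Alb* read 107 to 125 CPM in samples 5 and 6, within the 66.8 to 197 CPM of samples 1 to 4. In Tim4- KCs it read 50.0 to 94.1 CPM, within the 42.9 to 98.2 CPM of samples 1 to 4. The 9 hepatocyte markers summed to 176 to 220 CPM in CRE- KC samples 5 and 6 and 229 to 501 CPM in samples 1 to 4. In Tim4+ KCs they summed to 295 to 326 CPM, within the 151 to 473 CPM of samples 1 to 4. In Tim4- KCs they summed to 148 to 238 CPM against 92.0 to 216 CPM, and sample 6 held the highest sum. The part of hepatocyte RNA in *Fabp1* was not tested. The ratio of *Fabp1* to *Alb* was 0.327 to 0.971 in the 6 samples numbered 5 or 6 and 0.101 to 0.224 in the 12 others. Sex and the sample numbers 5 and 6 cannot be told apart.

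**Figure D4:**
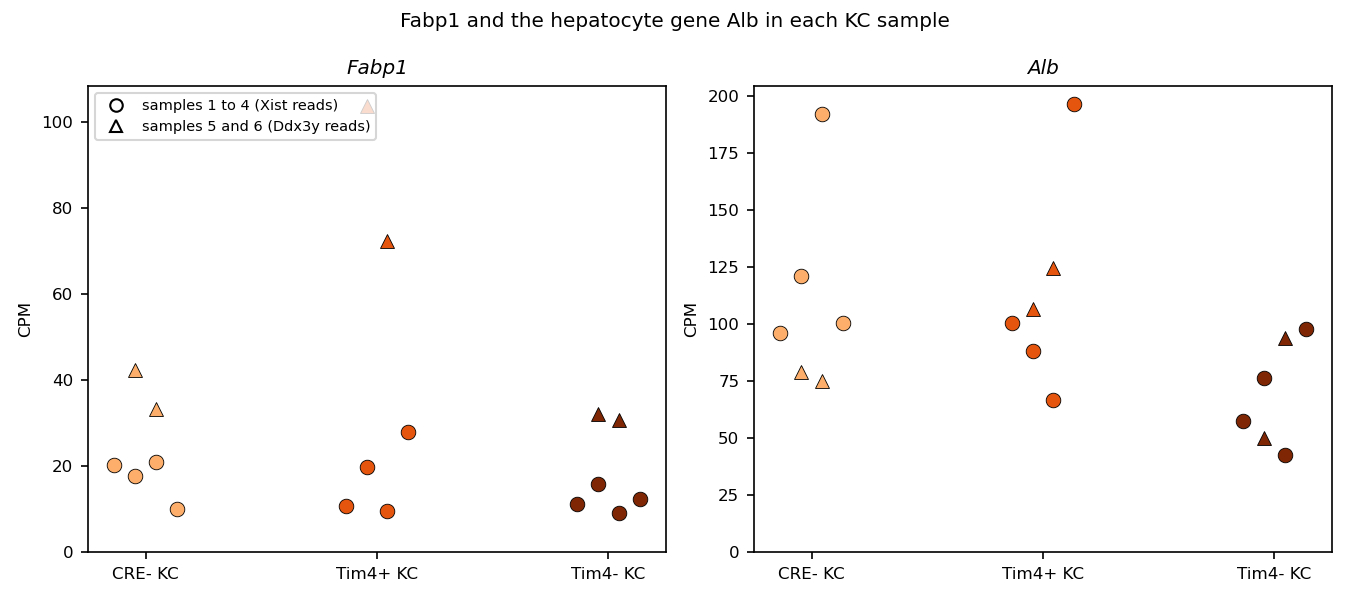
CPM (y axes) of *Fabp1* and of the hepatocyte gene *Alb* in each KC sample by group, with circles for samples 1 to 4 and triangles for samples 5 and 6. The triangles are the highest *Fabp1* values of each group, from 30.8 to 104 CPM, and are not the highest *Alb* values of any group.

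*Lpl*, *Plin2* and *Angptl4* did not pass the test in any comparison of KCs. *Lpl* spread widely within each group, from 394 to 851 CPM in CRE- KCs, 387 to 1219 CPM in Tim4+ KCs and 359 to 1278 CPM in Tim4- KCs. *Plin2* stayed between 158 and 322 CPM in all 18 KC samples. *Angptl4* stayed between 0.949 and 7.57 CPM, and at that level only a large difference could be detected (log2 fold change -0.71 ± 0.47 SE, adjusted p = 0.286 for Tim4- against CRE- KCs).

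The change on *Zeb2* deletion was then tested for a difference between the tissues, as the mean of both CRE+ AM groups over CRE- AMs less the same quantity for KCs. Of the 10 genes 3 were called lower, *Pparg*, *Fabp1* and *Fabp4*, and none higher, where 3.50% of 13294 genes were called lower and 4.65% higher. For *Pparg* the difference was -1.18 ± 0.21 SE (adjusted p = 8.6e-05), with a level that rose in both CRE+ KC populations and was lower or overlapping in CRE+ AMs. For *Fabp4* it was -2.14 ± 0.27 SE (adjusted p = 2.1e-07). For *Fabp1* it was -2.02 ± 0.52 SE (adjusted p = 0.0047), and -1.54 (adjusted p = 0.00037) with KC samples 1 to 4 only. For *Angptl4*, called lower in CD11b+ AMs, the difference between tissues did not pass the test (-0.84 ± 0.40 SE, adjusted p = 0.142), nor did it for *Cd36* (0.41 ± 0.24 SE, adjusted p = 0.249). The values for *Cidec* and *Olr1* rest on a few KC reads and are not given.

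Other genes of the pathway were counted from 3 lists. Of all genes, 12.4% were called higher and 20.9% lower in CRE- AMs than in CRE- KCs. The shares were 3.98% and 2.51% in CD11b- AMs and 9.57% and 5.68% in CD11b+ AMs. Between the CRE+ AM populations they were 6.85% and 3.30%. In Tim4+ and Tim4- KCs against CRE- KCs they were 1.94% and 0.376%, and 3.43% and 5.39%. In Tim4- against Tim4+ KCs they were 0.440% and 5.01%. The test between the tissues called 4.65% higher and 3.50% lower. The first list held 19 partners and upstream receptors of *Pparg*, of which 18 were tested in CRE- AMs against CRE- KCs, with 8 called higher and 1 (*Ppara*) lower, and a median of 0.90 on the log2 scale. Among the 8 were *Bhlhe40*, *Cebpb*, *Csf2ra*, *Tgfbr1*, *Bhlhe41*, *Ncoa1* and *Csf2rb*, which include both chains of the GM-CSF receptor, which acts upstream of *Pparg* in AMs. In CD11b+ AMs 3 of 17 were called lower, among them *Cebpa* and *Ppargc1b*, and none higher, and no list gene was called in CD11b- AMs or between the CRE+ AM populations. *Cebpa*, a transcription factor that works with PPARγ in adipocytes, read 184 to 219 CPM in CRE- AMs and 57.2 to 83.2 CPM in CD11b+ AMs (log2 fold change -1.50 ± 0.10 SE, adjusted p = 3.5e-10). In KCs *Bhlhe40* was called higher in Tim4+ KCs (1.15, adjusted p = 4.1e-05) and *Bhlhe41* in Tim4- KCs (2.76, adjusted p = 0.021), and none of the 18 was called between the CRE+ populations. The *Bhlhe41* call rested on Tim4- KC sample 1, at 1018 CPM against a group median of 32.1 CPM, and the value was 0.26 (adjusted p = 0.69) without it, when *Bhlhe40* was called in Tim4- KCs too (1.06, adjusted p = 4.1e-06). None of the 18 was called in the test between the tissues.

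The second list held 26 other genes of fatty acid and lipoprotein uptake, binding and activation, 25 of them in the files. Of 17 tested, 3 were called higher and 8 lower in CRE- AMs than in CRE- KCs, with a median of -0.97. Over all genes 12.4% were called higher and 20.9% lower. *Fabp7* read 0.179 ± 0.233 CPM in CRE- AMs (SD, n = 5) and 337 ± 85.5 CPM in CRE- KCs (SD, n = 6). Of 15 tested, 4 were called higher and 1 lower in CD11b- AMs, 2 higher and 1 lower in CD11b+ AMs against CRE- AMs, and 2 higher and 2 lower between the CRE+ AM populations. The shares of all genes were, in that order, 3.98% and 2.51%, 9.57% and 5.68%, and 6.85% and 3.30%. *Acsl3*, an acyl-CoA synthetase of lipid droplets, rose from 2.56 ± 0.640 CPM in CRE- AMs to 13.3 ± 2.61 CPM in CD11b- AMs and 41.6 ± 7.18 CPM in CD11b+ AMs (SD, n = 5 each), called in both. In KCs 1 of 19 was called lower in each comparison, *Fabp7* in Tim4+ KCs (-1.21, adjusted p = 0.0017) and *Gpihbp1* in Tim4- KCs against both other groups. *Fabp7* was called in Tim4- KCs too (-1.09, adjusted p = 0.0018) when Tim4- KC sample 1 was left out. *Gpihbp1* anchors lipoprotein lipase on capillary endothelium. It read 26.4 to 120 CPM in CRE- KCs, 87.2 to 182 CPM in Tim4+ KCs and 20.1 to 33.4 CPM in Tim4- KCs. The sums of the endothelial markers were also lowest in Tim4- KCs, and the part of endothelial RNA in *Gpihbp1* was not tested. In the test between the tissues 3 of 20 were called higher and 1 lower.

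The third list held 21 other genes of lipid droplets, storage and lipolysis. Of 17 tested, 9 were called higher and 2 lower in CRE- AMs than in CRE- KCs, with a median of 1.72. Over all genes 12.4% were called higher and 20.9% lower. In CD11b- AMs 3 were called higher and none lower, in CD11b+ AMs 3 higher and 2 lower, and between the CRE+ AM populations 4 higher and 1 lower. The shares of all genes were, in that order, 3.98% and 2.51%, 9.57% and 5.68%, and 6.85% and 3.30%. *G0s2*, which encodes an inhibitor of the triglyceride lipase ATGL, rose from 18.03 ± 3.46 CPM in CRE- AMs to 125 ± 44.6 CPM in CD11b- AMs and 393 ± 55.6 CPM in CD11b+ AMs (SD, n = 5 each). *Dgat2*, which catalyses the last step of triglyceride synthesis, rose over the same groups from 95.05 ± 12.5 to 291 ± 54.1 and 776 ± 73.8 CPM. The sum of the neutrophil markers also rose over these groups. The part of other myeloid cells in the rises of *G0s2*, *Dgat2* and *Acsl3* was not tested. *Mgll*, the monoacylglycerol lipase, fell from 139 ± 14.0 CPM in CRE- AMs to 68.7 ± 9.17 CPM in CD11b+ AMs (log2 fold change -1.03 ± 0.10 SE, adjusted p = 6.5e-08). In KCs none of 16 was called in Tim4+ KCs, and *Mgll* alone was called lower in Tim4- KCs, against CRE- KCs (-1.44, adjusted p = 0.0015) and against Tim4+ KCs (-1.82, adjusted p = 4.2e-04). *Fitm1* was called higher in Tim4- KCs (3.50 ± 1.20 SE, adjusted p = 0.038) only when Tim4- KC sample 1 was left out. In that fit it did not pass the test in Tim4+ KCs (2.97 ± 1.18 SE, adjusted p = 0.155), and its level is not given. *Dgat2* and *Fitm1* were singled out after their values were seen. In the test between the tissues *G0s2* and *Dgat2* were called higher and none of 20 lower.

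The genes whose 6 group means were most like those of *Pparg* were found by the root mean square difference of centered log2 CPM, over 13293 other genes tested. *Mical1* was nearest, at 0.11, with mean levels of 215, 187 and 152 CPM in CRE-, CD11b- and CD11b+ AMs and 14.4, 26.5 and 36.7 CPM in CRE-, Tim4+ and Tim4- KCs. *Btg2* (0.15), *Tuba4a* (0.18) and *Fxyd5* (0.19) were also among the 5 nearest. Among the other 9 genes described here *Plin2* was nearest, at 0.41 and place 58, and the rest stood at 0.91 or more.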

How the data were processed

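RNA of sorted cells was sequenced and, per the labels, processed with FastQC 0.11.4, Trimmomatic 0.35, TopHat2 2.1.0 (mm10) and SAMtools 0.1.18. The authors counted reads per gene with HTSeqCount and deposited whole-number counts, not normalized, for each of 33 samples. The annotation and the strand setting are not given in the sources used here, so reads of overlapping genes may be misassigned. The 5 tally rows of each file, 5.88 to 10.1% of its reads, were left out.

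Counts were filtered with filterByExpr, scaled by TMM and tested with the quasi-likelihood test of edgeR 4.0.16 in R 4.3.3, with Benjamini-Hochberg adjustment over all genes tested, and tests are two-sided. A gene was called at an adjusted p under 0.05 and a log2 fold change beyond 1 in size. AM comparisons were fitted on the 15 AM samples, KC comparisons on the 18 KC samples, CRE- AMs against CRE- KCs on those 2 groups and the test between tissues on all 33 samples. The script was tested on simulated data. limma 3.58.1 (voom), DESeq2 1.42.0, other scalings, filters and sample sets were tried as alternatives.

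From each pathway list, the called gene with the largest rise and that with the largest fall, with at least 5 CPM in the higher group, could be named. Some genes that these rules name are not reported here. Marker lists for AMs, KCs, hepatocytes, endothelium, adipocytes, lung epithelium, neutrophils, monocytes, B cells and T cells were summed per sample. The members and lists were chosen with earlier results of these data known. The labels do not say that samples came from separate mice, so p-values measure the spread between these samples. Read floors cover counting error only. Motifs were read in RefSeq start windows of GRCm38.p6, and gene positions are from GENCODE M21.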

Additional observations from a re-analysis of the deposited data

Results flagged for a closer look

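In 7 of 58 sets of 5 or 6 samples of 1 gene in 1 group, 1 sample lay far from the others by Dixon's criterion, which chance exceeds in about 1 in 20 sets. Tim4- KC sample 1, the library with the fewest reads, was the highest of its group for *Fabp4* (27.5 CPM), *Fabp5* (31.6 CPM) and *Cd36* (598 CPM). CRE- KC sample 6 was the highest of its group for *Cd36* (604 CPM). The other 3 rest on few reads: *Cidec* at 0.401 CPM in CRE- KC sample 5 and *Olr1* at 0.599 CPM in CRE- KC sample 3 and 0.506 CPM in Tim4- KC sample 6.

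The change on *Zeb2* deletion differed between AMs and KCs, on the log2 scale, by -1.18 for *Pparg*, -2.02 for *Fabp1* and -2.14 for *Fabp4* in the test of that difference over all 33 samples. Tissue and Cre line cannot be told apart in these differences, nor can deletion and cell origin in their KC part.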

How the results depend on the processing

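The 23 called results of members had 548 values under the alternatives, of which 545 kept direction and call, 3 fell below a threshold and none reversed. All 3 are *Fabp4* in Tim4+ against CRE- KCs, at 0.93 without CRE- KC replicate 6, 0.93 without both that library and Tim4- KC replicate 1, and 0.94 with KC samples 1 to 4. The number of members called higher in Tim4+ KCs was 2 in place of 1 under limma-voom, library size only, at least 10 counts in every sample, the replicate block and 1 fit of all 33 samples, as *Cd36* crossed the fold cut-off, and 1 to 2 with single samples left out (2 without Tim4+ KC replicate 5 or 6). The number called lower in Tim4- against Tim4+ KCs was 2 in place of 1 under limma-voom, the replicate block and both libraries left out, as *Fabp5* crossed it, and 1 to 2 with single samples left out (2 without Tim4- KC replicate 1 or Tim4+ KC replicate 5). Same-numbered samples deviated together with r from 0.0976 to 0.241 between Tim4- and Tim4+ KCs, where 6 of 6 matched their own number best, and from 0.062 to 0.123 between CD11b+ and CD11b- AMs, where 5 of 5 did. Between CD11b+ and CRE- AMs r was 0.0365 to 0.0891, and 4 of 5 matched their own number best. In every comparison r was below 0.1 for some pair, but the size of r cannot tell whether same-numbered samples share a mouse. The samples were not paired because the labels do not say what a shared number stands for. The matches hint at a link within the CRE+ groups and, more weakly, between CD11b+ and CRE- AMs. The replicate block also called *Cd36* between the CRE- groups (10 members in place of 9) and changed no other count of members. No cause of these shifts was tested.

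With at least 10 counts in every sample, which tests fewer genes, 2228, 394, 1114, 672, 187, 688, 451 and 522 genes were called in place of 4045, 752, 1765, 1175, 289, 1103, 681 and 1083, in the order of CRE- AMs against CRE- KCs, CD11b- and CD11b+ against CRE- AMs, CD11b+ against CD11b- AMs, Tim4+ and Tim4- against CRE- KCs, Tim4- against Tim4+ KCs, and the test between tissues. With no fold cut-off they were 7680, 2972, 5004, 4215, 761, 3169, 1433 and 2597. Members called were then 1 higher and 6 lower in CD11b- AMs, 2 higher and 7 lower in CD11b+ AMs, 2 higher between the CRE+ AMs, 3 higher in Tim4+ KCs and 3 lower between the CRE+ KCs. With KC samples 1 to 4 only, 190 genes were called in Tim4+ KCs.

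Reversals were all among differences not called. In Tim4- against CRE- KCs *Lpl* was -0.0599 under limma-voom, -0.089 with the replicate block and -0.039 with KC samples 1 to 4. In CD11b+ against CD11b- AMs *Plin2* was -0.071 and *Olr1* -0.034 by library size only. With KC samples 1 to 4, *Fabp1* was -0.054 and *Plin2* -0.085 in Tim4+ KCs, *Fabp5* was 0.023 in Tim4- KCs, and the test between tissues gave 0.034 for *Plin2*, -1.14 for *Cidec* and 0.84 for *Olr1*, with -0.24 for *Cidec* under limma-voom. With single samples left out, *Lpl* ran from -0.074 to 0.037 in CD11b- AMs, from -0.24 to 0.16 in Tim4- against CRE- KCs and from -0.43 to 0.0035 in Tim4- against Tim4+ KCs. *Angptl4* ran from -0.15 to 0.32 in Tim4+ KCs, and between tissues *Cidec* ran from -2.19 to 1.58 and *Olr1* from -2.35 to 0.054.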

Other observations

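*Lpl*, which no KC comparison called, had the same order over the sample numbers in both CRE+ KC populations. From the lowest to the highest, samples 2, 4, 6, 1, 3 and 5 read 387, 539.8, 616, 842, 1117 and 1219 CPM in Tim4+ KCs and 359, 508.5, 547, 562, 956 and 1278 CPM in Tim4- KCs. This order was noticed in the data, no test was made of it, and the labels do not say whether samples with the same number share a mouse.

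Of the marker lists not described above, the 8 lung epithelial markers summed to 22.8 to 58.2 CPM in AMs and to at most 1.21 CPM in KCs. The 5 B cell markers summed to 21.1 to 111 CPM in KCs and to at most 14.0 CPM in AMs, and the 4 T cell markers in the files to 12.7 to 49.3 CPM in KCs and to at most 9.95 CPM in AMs. The 8 monocyte markers summed to 373 to 966 CPM in Tim4- KCs and to 172 to 414 CPM in the other KCs.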
